A study of Mus musculus with 65 samples.

Results

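The Id genes of the mouse cortex, Id1, Id2, Id3 and Id4, were described in single cells as the 4 rows of that name among the 11971 genes of the count table, all 4 of which were present. The table holds 65 cells from the brain cortex of C57BL/6J embryos at E13.5, taken without the ganglionic eminences. Brains were pooled over embryos, and living cells, those not stained by propidium iodide, were sorted one by one. All cells form 1 group, labelled as neural progenitor cells, with no second genotype, age or treatment. Their titles carry a set number, with 31, 13 and 21 cells in title sets 1, 2 and 3, which the labels do not explain. The label holds for only some of the cells. In 22 cells the progenitor gene Sox2 was at 10 CPM or more, where CPM are counts scaled to a cell total of 1000000, and 16 others had Neurod6, a gene of young excitatory neurons, at that level.

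Id proteins are helix-loop-helix proteins that lack the basic region with which other members of the family hold DNA. They bind the E proteins, the partners that proneural factors such as Neurog2 need for binding their targets, and so keep those factors from acting. In the developing brain Id genes are known as genes of dividing progenitors and as targets of bone morphogenetic protein (BMP) signalling, and Hes1, a Notch target, represses proneural genes in the same progenitors. The 4 Id genes are therefore set here against Hes1 and Sox2 as genes of progenitors, Neurog2 as a gene of neurogenic commitment and Neurod6 as a gene of neurons.

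To show what sequence lies before genes that share BMP signalling as a known input, the 250 bases before the start site of Id2, Id3 and Id4 are given, from the RefSeq promoter table of build GRCm38.p6, 5′ to 3′ on the strand of the gene. The table gave windows for 3 of the 4 genes, Id2 (chr12:25096093-25096342, minus strand), Id3 (chr4:136143572-136143821, plus strand) and Id4 (chr13:48260866-48261115, plus strand). Capitals mark the E-box CANNTG, the site of proneural factors with E proteins, and GGCGCC, an element bound by the BMP effectors Smad1 and Smad5.
Id2: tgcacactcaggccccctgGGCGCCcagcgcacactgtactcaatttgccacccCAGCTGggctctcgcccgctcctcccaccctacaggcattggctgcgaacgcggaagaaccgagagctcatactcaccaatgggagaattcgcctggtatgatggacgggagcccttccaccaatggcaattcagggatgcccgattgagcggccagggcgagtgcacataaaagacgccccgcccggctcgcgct
Id3: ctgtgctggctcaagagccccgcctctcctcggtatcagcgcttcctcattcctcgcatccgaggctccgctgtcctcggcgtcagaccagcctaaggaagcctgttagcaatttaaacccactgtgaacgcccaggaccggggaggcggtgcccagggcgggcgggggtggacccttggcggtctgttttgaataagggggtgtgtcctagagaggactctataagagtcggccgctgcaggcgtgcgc
Id4: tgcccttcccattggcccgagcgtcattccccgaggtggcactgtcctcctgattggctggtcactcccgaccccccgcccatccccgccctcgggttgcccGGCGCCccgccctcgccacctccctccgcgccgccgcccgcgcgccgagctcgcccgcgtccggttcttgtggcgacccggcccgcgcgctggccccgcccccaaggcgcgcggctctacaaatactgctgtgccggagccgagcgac

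The windows differed in these letters. Searched on both strands, GGCGCC was found at position -231 of Id2 and -148 of Id4, counted from the start site, and not in the window of Id3, while 9.59% of the 32851 windows of all genes held it. An E-box lay at position -196 of Id2 and in neither of the other windows, against 66.2% of all windows. GGGCGG, a GC box that can overlap GGCGCC, occurred 1, 2 and 5 times in Id2, Id3 and Id4 (32.7% of all windows), and CACNAG, the N-box bound by Hes proteins, once, in Id4 (36.7%). The Smad box palindrome GTCTAGAC (0.167% of windows) and the cyclic AMP element TGACGTCA (1.55%) were in none of them. The shorter box, GTCT or AGAC, was not searched for, and its letters can be read in the windows of Id2 and Id3. Guanine and cytosine made up 62.8%, 62.8% and 75.6% of the windows of Id2, Id3 and Id4, against a median of 52.4%. These are matches of letters, not measured binding.

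Most cells either clearly had an Id gene or nearly lacked it, with 2 cells between 1 and 10 CPM for Id2 and 4 for Id4. Id2 reached 10 CPM in 30 of 65 cells (46.2%, exact Clopper-Pearson 95% interval 33.7 to 59), Id4 in 20 (30.8%, 19.9 to 43.4), Id3 in 13 (20%, 11.1 to 31.8) and Id1 in 3 (4.62%, 0.962 to 12.9). These intervals, like all below, cover counting error only, since the cells come from pooled brains with no animal named. The design thus has no replicates, and no p-value is given. No cell had Id3 between 1 and 10 CPM: the 13 positive cells began at 76.4 CPM, and the highest of the other 52 had 0.635 CPM. For Id2, Id4 and Id1 the lowest positive cells had 10.8, 11.7 and 13.7 CPM and the highest of the rest 1.37, 9.25 and 0.974 CPM. Libraries had a median of 14609426 reads. Values of 1 to 3 reads made up 11 of the 54 cells with any Id2 read, 15 of 34 for Id3 and 13 of 39 for Id4. Therefore 10 CPM and not a single read was used. In 1 Id4 cell this bound still let a single read through. That cell, of set 2 with 85338 reads, had Sox2 and Neurog2, and its 11.7 CPM of Id4 was 1 read. Without cells under 1000000 reads, Id4 was present in 19 of 62 cells.

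**Figure D1:**
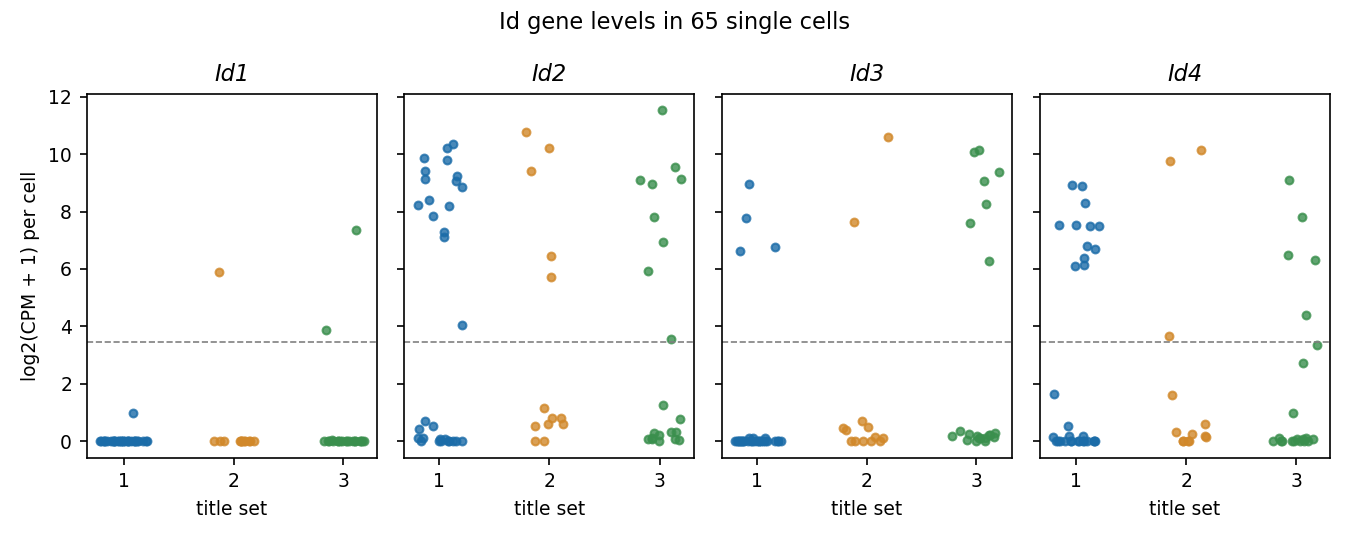
Level of each Id gene as log2(CPM + 1) in every one of 65 cells (points), by title set on the x axis, with the dashed line at 10 CPM. Most cells lie near 0 or well above the line, with Id2 above it in 30 cells, Id4 in 20, Id3 in 13 and Id1 in 3.

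In the cells that had it, Id2 ran from 10.8 to 2961 CPM with a median of 516 CPM. Id3 had a median of 304 CPM in its 13 cells and a highest value of 1537 CPM, and Id4 a median of 180 CPM in its 20 cells and a highest value of 1121 CPM. The 3 cells with Id1 had 58.4 CPM (set 2), 13.7 CPM and 164 CPM (both set 3), and Id1 had no read in 60 cells, so that no relation of Id1 to other genes is drawn. Per kilobase of merged GENCODE M21 exons, the mean level over all cells was 114 CPM for Id2, 57.1 for Id3, 21.6 for Id4 and 3.14 for Id1. This order describes these cells only. The SD across cells exceeded the mean for every Id gene (Id2 278 CPM, SD 514, Id3 102 CPM, SD 289, Id4 83.3 CPM, SD 204, and Id1 3.64 CPM, SD 21.5). That SD is a spread between cells, and whether neighbours in the order differ was not tested.

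The title sets did not hold the Id genes alike. By set, in the order 1, 2 and 3, Id3 was in 12.9%, 15.4% and 33.3% of cells, Id4 in 38.7%, 23.1% and 23.8%, and Id2 in 51.6%, 38.5% and 42.9%. Hes1 differed more, with 6, 1 and 14 cells. The sets also differ in depth (median 14032041, 8127759 and 22483962 reads) and in red blood cell transcripts (median summed CPM of the 5 measured erythroid genes 0.885, 607 and 736), and what part these play in the Id counts was not tested.

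Most cells with an Id gene had only 1. Of 65 cells, 19 had none at 10 CPM, 28 had 1, 16 had 2 and 2 had 3. Id2 alone was found in 16 cells, Id4 alone in 7, Id3 alone in 5, Id2 with Id4 in 8, Id3 with Id4 in 3 and Id2 with Id3 in 3. The cells with 3 Id genes both had Sox2, one in set 1 with Id2, Id3 and Id4 and one in set 2 with Id1, Id2 and Id3. Spearman correlations of CPM across the 65 cells, which come from pooled brains and differ in title set and depth, were near 0 for Id2 with Id3 (rho = -0.123), Id2 with Id4 (-0.067) and Id3 with Id4 (-0.057). Id2 was present in 9 of the 20 Id4 cells and 5 of the 13 Id3 cells, beside 30 of all 65 cells, and Id3 in 4 of the 20 Id4 cells, beside 13 of 65. By class, 3 of 22 Sox2 cells, 5 of 16 Neurod6 cells and 11 of the 27 cells with neither gene had no Id gene.

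**Figure D2:**
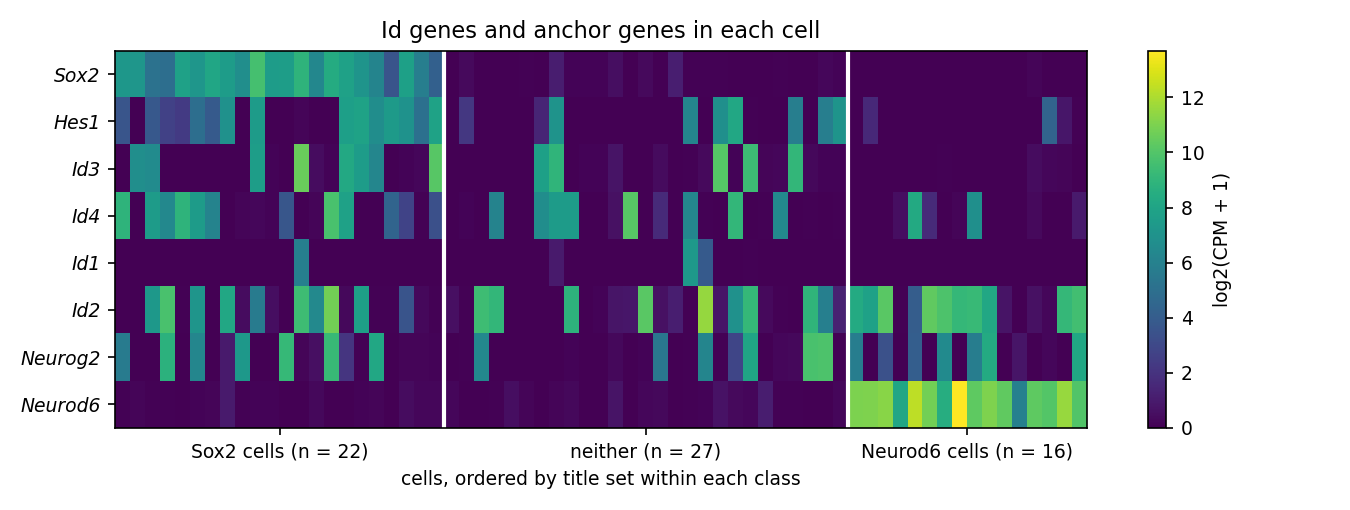
Levels of the 4 Id genes and the anchor genes Sox2, Hes1, Neurog2 and Neurod6 (rows) in 65 cells (columns), coloured by log2(CPM + 1), in 22 Sox2 cells, 27 cells with neither gene and 16 Neurod6 cells. Id3 is dark in all 16 Neurod6 cells, of which 11 have Id2 at 10 CPM or more.

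Id2 was more frequent in cells with Neurog2, Eomes or Neurod6 than in the rest, but not in cells with Tbr1, a gene of early-born cortical neurons. It was present in 14 of 19 cells with Neurog2 (73.7%, 48.8 to 90.9) and in 16 of the 46 without (34.8%, 21.4 to 50.2), intervals that overlap slightly. With Eomes, the T-box gene of intermediate progenitors, it was present in 16 of 20 cells (80.0%, 56.3 to 94.3) against 14 of 45 (31.1%, 18.2 to 46.6), and with Neurod6 in 11 of 16 (68.8%, 41.3 to 89.0) against 19 of 49 (38.8%, 25.2 to 53.8), intervals that overlap. Of the 19 Tbr1 cells 9 had Id2 (47.4%, 24.4 to 71.1), and of the 46 others 21 (45.7%, 30.9 to 61). The level of Id2 had a median of 334 CPM in Neurog2 cells and 0.491 CPM in the others, of 478 CPM in Eomes cells and 0.448 CPM in the others, and of 313 CPM in Neurod6 cells and 0.531 CPM in the others. By Sox2 the shares of Id2 were close, with 10 of 22 Sox2 cells (45.5%, 24.4 to 67.8) and 20 of 43 others (46.5%, 31.2 to 62.3), and by Hes1 they were 8 of 21 (38.1%, 18.1 to 61.6) against 22 of 44 (50%, 34.6 to 65.4).

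The differences in Id2 were larger than those of most genes. Of 8376 genes of mean CPM 10 or more, 6.57% were present more often by at least 20 percentage points in Neurog2 cells, 5.17% in Eomes cells and 9.37% in Neurod6 cells, and Id2 by 38.9, 48.9 and 29.97 points. No Id gene was less frequent by 20 points in Neurog2, Hes1 or Sox2 cells, as 1.96%, 6.83% and 3.37% of genes were. That bound, and the use of Eomes and Ccnb1 for it, were chosen after the Id values were seen. Within title sets 1, 2 and 3, Id2 was present in 8 of 10, 1 of 3 and 5 of 6 Neurog2 cells, against 8 of 21, 4 of 10 and 4 of 15 others. For Neurod6 cells the counts were 9 of 11, 0 of 2 and 2 of 3, against 7 of 20, 5 of 11 and 7 of 18. The difference by Neurod6 was thus not seen in set 2. For Eomes cells, leaving out set 1, 2 or 3 gave 6 of 9, 15 of 16 and 11 of 15. The others then had 8 of 25, 10 of 36 and 10 of 29. Within set 2, which had 4 Eomes cells, the rho of Id2 with Eomes was -0.23.

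Across the 65 cells the rho of Id2 was 0.355 with Neurog2 and 0.272 with Neurod6, and -0.186 with Sox2 and -0.177 with Hes1. Within sets 1, 2 and 3 it was 0.476, 0.000 and 0.298 with Neurog2, and 0.427, -0.359 and 0.304 with Neurod6. Without set 1 the pooled values dropped to 0.15 and 0.03. In set 2, which holds 13 cells, neither relation was seen. With Sox2 the rho of Id2 within sets 1, 2 and 3 was -0.431, 0.398 and -0.244. With Hes1 it was -0.260, 0.332 and -0.246, so that both signs were reversed in set 2.

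The cells with Id2 and Neurod6 mostly carried Eomes too. Of the 10 Neurod6 cells that also had Eomes, 9 had Id2, with a median of 449 CPM, and of the 6 without Eomes 2 had it, with a median of 0.576 CPM. Likewise all 6 Neurod6 cells with Neurog2 had Id2, and 5 of the 10 without Neurog2. In the 9 Pax6 cells with Neurog2, Id2 was present in 6, and in the 20 Pax6 cells without it in 7.

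Genes of intermediate progenitors followed Id2 in greater number than other genes. A gene was counted with an Id gene when its rho passed 0.3 in either direction with 1 sign in every title set. With Id2, 1.86% of 8376 genes did so positively and 0.179% negatively. The ranks behind rho take in values under 10 CPM, whose number differed by set. Id3 had a read in 7 of 31 cells of set 1, 4 of them at 10 CPM. In set 3 it had a read in 19 of 21 cells, 7 of them at 10 CPM. The part of such values in the genes counted was not tested. Of the 12 intermediate progenitor genes of mean CPM 10 or more, 3 passed, Hes6 (rho = 0.346), Gadd45g (0.352) and Dll3 (0.339), and none passed negatively. All 12 had a positive rho, as 65.2% of all genes did, with a median of 0.342 against a median of 0.048 over all genes. Hes6 is a Hes relative that favours neurogenesis, Gadd45g a gene of cell cycle exit and Dll3 a Notch ligand family member. Eomes had a rho of 0.470 with Id2 but -0.23 within set 2, and was therefore not counted. Cells with Id2 had a median of 6 of the 13 measured genes of this list (0 to 11) at 10 CPM, and cells without Id2 a median of 2 (0 to 10). Beside this, cells with Id2 had a median of 2981 genes of any kind at 10 CPM and cells without it 2583, and the part of that difference was not tested.

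Of the 8 proneural and neuronal bHLH genes of sufficient mean, those whose proteins the Id proteins oppose, 1 passed with Id2, Neurod2 (rho = 0.469, in 17 cells, 12 of them with Id2), and all 8 had a positive rho (median 0.288). Neurod1 (0.303) and Nhlh1 (0.335) changed sign in set 2. Of 15 excitatory neuron genes 14 had a positive rho with Id2 (median 0.191), with Neurod2 the 1 that passed. Of 19 apical progenitor genes 15 had a negative one (median -0.095) with none passing. Over all genes 65.2% had a positive rho with Id2.

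Among genes with 1 sign of rho in every title set, those most like Id2 over the 65 cells were the actin-binding gene Cotl1 (0.504), the stress gene Gadd45a (0.502), the semaphorin receptor gene Nrp1 (0.477), Acpl2 (0.475), Neurod2 (0.469) and the kinase gene Mapkapk2 (0.463). Cotl1 reached 10 CPM in 26 cells, 18 of them with Id2, and Nrp1 in 16 cells, 12 of them with Id2. At the other end lay Mtpap (-0.427), Zfp958 (-0.407), Zfhx4 (-0.376) and Bcas2 (-0.351). They were picked as extremes among 8376 genes.

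**Figure D3:**
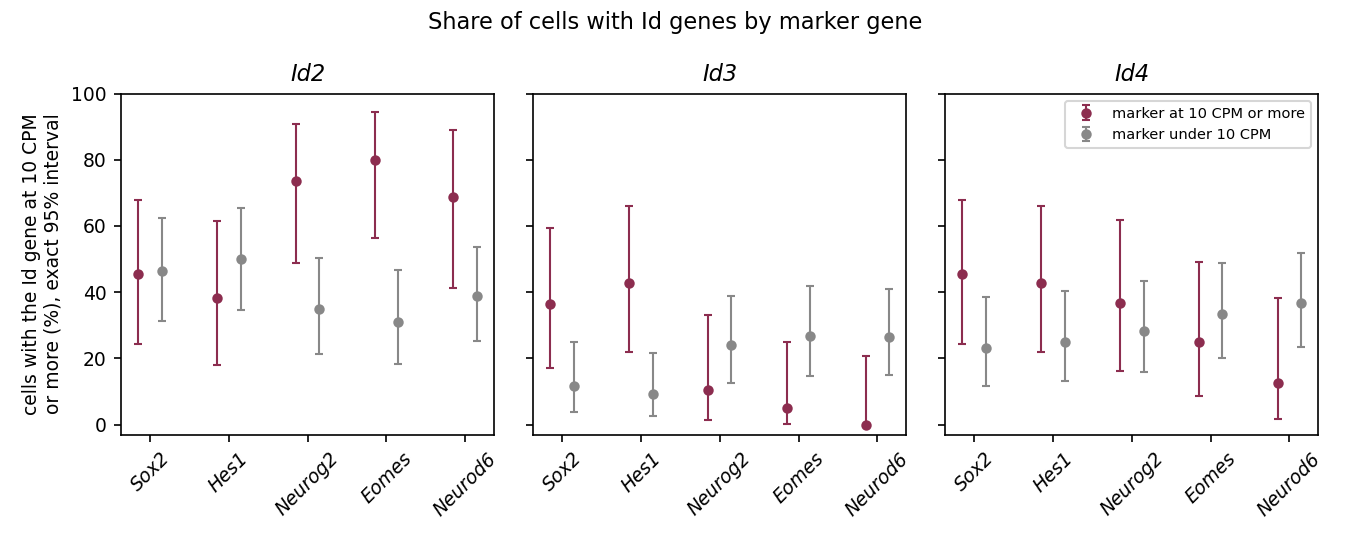
Share of cells with Id2, Id3 or Id4 at 10 CPM or more (y axis, percent, points with exact 95% intervals of counting error) among cells with each marker gene at 10 CPM or more (red) and the other cells (grey). Id2 lies at 80.0% in Eomes cells and 31.1% in the rest, and Id3 at 42.9% in Hes1 cells and 0% in Neurod6 cells.

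Id3 was found with progenitor genes and in no cell with Neurod6. It was present in 9 of 21 Hes1 cells (42.9%, 21.8 to 66.0) and in 4 of the 44 others (9.09%, 2.53 to 21.7), and in 8 of 22 Sox2 cells (36.4%, 17.2 to 59.3) against 5 of 43 (11.6%, 3.89 to 25.1). In Neurod6 cells it was present in 0 of 16 (upper limit 20.6%) against 13 of 49 others (26.5%, 14.9 to 41.1). The intervals overlap by Sox2 and by Neurod6. The 16 Neurod6 cells held 11 Id3 reads in all, with at most 4 in a cell. Of other neuronal genes, Id3 was at 10 CPM in 0 of 19 cells with Tbr1 (upper limit 17.6%), 0 of 18 with Neurod1 (18.5%) and 2 of 17 with Neurod2 (11.8%, 1.46 to 36.4), against 13 of 46, 13 of 47 and 11 of 48 others, all with overlapping intervals. It was also present in 1 of 20 Eomes cells (21.7 points less often than in the rest, a bound of 20 that 3.31% of genes passed). With Neurog2 it was present in 2 of 19 cells (10.5%, 1.30 to 33.1) against 11 of 46 (23.9%, 12.6 to 38.8), intervals that overlap widely.

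For comparison, 6.77% of genes were present more often by 20 points or more in Hes1 cells and 10.3% in Sox2 cells, and 6.26% less often in Neurod6 cells. Id3 differed by 33.8, 24.7 and -26.5 points. Within sets 1, 2 and 3, Id3 was present in 2 of 6, 1 of 1 and 6 of 14 Hes1 cells, and in 2 of 25, 1 of 12 and 1 of 7 others. Among Sox2 cells it was present in 2 of 9, 2 of 6 and 4 of 7, and among the others in 2 of 22, 0 of 7 and 3 of 14. Every set showed the same direction for both genes.

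The correlation of Id3 with Hes1 was less even than the counts. Over 65 cells rho was 0.390, and it passed the rule above, as did 5.09% of genes with Hes1. Within sets 1, 2 and 3 it was 0.143, 0.638 and 0.029, and with cells ranked within their own set 0.17. Set 3 holds both more Hes1 cells and more Id3 cells than the others, and without it rho was 0.17. With Sox2, Neurog2 and Neurod6 the rho of Id3 was 0.223, 0.014 and -0.176. Its sign was the same in every set with Sox2 but not with Neurog2, and with Neurod6 it was 0.238 within set 2. There the 2 Neurod6 cells had at most 0.394 CPM of Id3, under the bound of 10 CPM. Of Id2, Id3 and Id4, none passed the rule with Sox2, as 4.39% of genes did positively and 2.36% negatively, with Neurog2 (1.23% and 0.836%) or with Neurod6 (2.65% and 1.64%), and none passed negatively with Hes1 (2.36%).

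Among the Id3 cells were 2 with genes of mural and meningeal cells. The cells numbered 29 and 40 of set 3 carried 6 and 8 of the 9 measured mural and meningeal genes (of 13 listed), and had Id3 at 1075 and 539 CPM. The collagen gene Col3a1 was at 4701 and 3009 CPM in them and the matrix gene Lum at 5116 and 10018 CPM, while Sox2 was at 0.0712 and 0 CPM. Both had Hes1, at 113 and 57.2 CPM, and neither had Id1, Id2 or Id4 at 10 CPM. Over all 13 Id3 cells the summed CPM of the list ran from 0 to 22107 with a median of 0.557, and over the other 52 cells from 0 to 277 with a median of 0, where Acta2, Col1a1, Col1a2 and Dcn reached 10 CPM in no cell. Without the 2 cells, Id3 was present in 7 of 19 Hes1 cells and 4 of 44 others, and in 8 of 22 Sox2 cells and 3 of 41 others. The remaining 3 Id3 cells without Sox2 had 8, 11 and 5 of the 22 apical progenitor genes.

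The number of neuronal genes was lower in Id3 cells, though not for each gene. They had at most 5 of the 15 excitatory neuron genes at 10 CPM (median 3, lowest 0), and the other 52 cells had a median of 5.5 (0 to 13). The doublecortin gene Dcx reached 10 CPM in 34 cells, 1 of which had Id3, and Stmn2, a microtubule regulator of neurons, in 31 cells, also 1 with Id3. Both were chosen after their values were seen, and other genes of the list differed, with Id3 in 5 of 21 cells with Fezf2, 5 of 26 with Bcl11b, 8 of 53 with Tubb3 and 7 of 46 with Map2, beside 13 of all 65. By the correlation rule 2.51% of genes passed positively with Id3 and 0.860% negatively. Of the 15 excitatory neuron genes 1 passed negatively, the tubulin gene Tubb3 (rho = -0.406), and 11 had a negative rho (median -0.086, all genes 0.030). Of the 12 intermediate progenitor genes Elavl4 (-0.396), a neuronal RNA-binding protein gene, passed negatively. Within sets 1, 2 and 3 the rho of Id3 was weaker, at -0.222, -0.328 and -0.021 with Tubb3. With Elavl4 it was -0.310, -0.294 and -0.172. Of 19 apical progenitor genes 15 had a positive rho (median 0.147), with Hes1 the 1 that passed. Over all genes 57.8% had a positive rho with Id3.

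**Figure D4:**
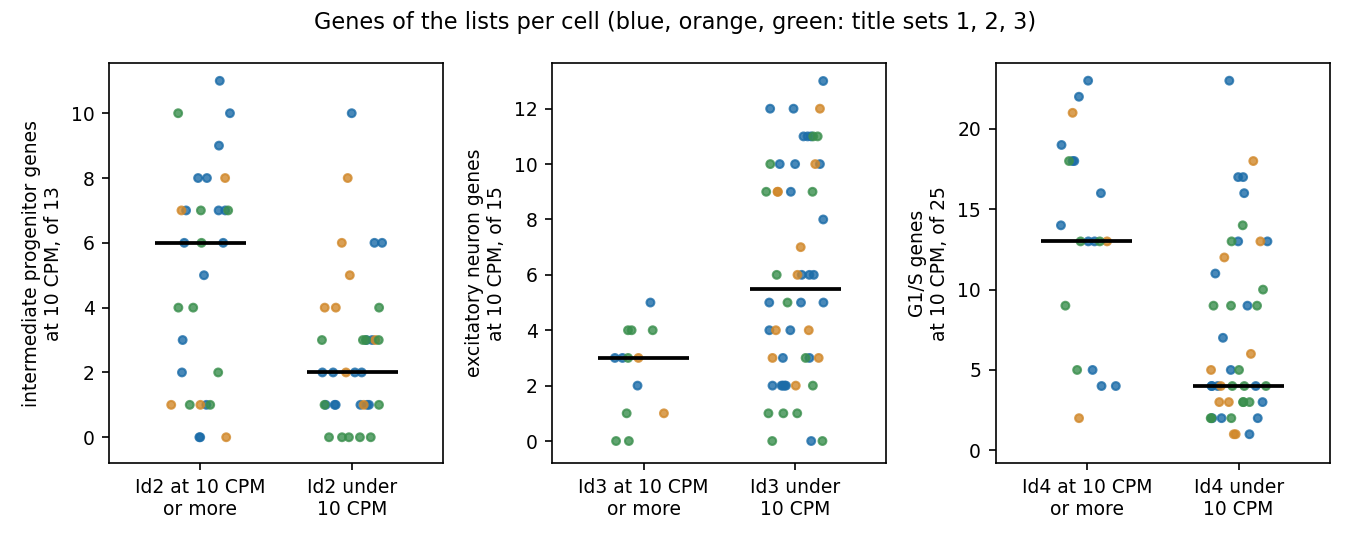
Number of genes of a list at 10 CPM or more in each cell (points, coloured by title set; black bars, medians), for cells with and without an Id gene. The medians are 6 and 2 intermediate progenitor genes by Id2, 3 and 5.5 excitatory neuron genes by Id3, and 13 and 4 G1/S genes by Id4.

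The genes most like Id3 were A230046K03Rik (rho = 0.648), the mitochondrial enzyme gene Clybl (0.642), Mlf1 (0.602), the peroxidase gene Gpx8 (0.587), Smim3 (0.544) and the respiratory chain gene Ndufa3 (0.535). Gpx8 was at 10 CPM in 26 cells and in 12 of the 13 Id3 cells, and Clybl in 14 cells and in 9 of the 13. At the negative end lay Zc3h15 (-0.544), the kinase gene Gsk3b (-0.522), the centrosome gene Cep170 (-0.512) and Dpysl5 (-0.499), a growth cone gene. They were picked as extremes among 8376 genes. Within sets 1, 2 and 3 rho was 0.299, 0.577 and 0.374 for A230046K03Rik and 0.094, 0.367 and 0.120 for Ndufa3. For Gsk3b it was -0.333, -0.085 and -0.206. These, Clybl, Cep170 and Dpysl5 were weaker in every set than over all cells. Mlf1, Gpx8, Smim3 and Zc3h15 were stronger in set 2.

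Id4 was more frequent in Sox2 cells and rare in Neurod6 cells. It was present in 10 of 22 Sox2 cells (45.5%, 24.4 to 67.8) against 10 of 43 others (23.3%, 11.8 to 38.6), and in 2 of 16 Neurod6 cells (12.5%, 1.55 to 38.3) against 18 of 49 (36.7%, 23.4 to 51.7). With Hes1 it was present in 9 of 21 cells (42.9%, 21.8 to 66.0) against 11 of 44 (25%, 13.2 to 40.3), and with Neurog2 in 7 of 19 (36.8%, 16.3 to 61.6) against 13 of 46 (28.3%, 16 to 43.5). The intervals overlapped in all 4 comparisons. The difference was 22.2 points by Sox2 and -24.2 by Neurod6, past the bound of 20 points that 10.3% and 6.26% of genes also passed.

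Within sets 1, 2 and 3, Id4 was present in 6 of 9, 2 of 6 and 2 of 7 Sox2 cells and in 6 of 22, 1 of 7 and 3 of 14 others. The difference was thus mostly one of set 1. In set 2, 1 of the 2 Sox2 cells with Id4 had it by a single read. Without cells under 1000000 reads, 9 of 20 Sox2 cells had Id4. In Neurod6 cells the counts were 2 of 11, 0 of 2 and 0 of 3. Id4 was at 316 and 110 CPM in the 2 Neurod6 cells that had it, both of set 1 and both with Eomes and Neurog2. Its rho was 0.232 with Sox2, 0.155 with Hes1, 0.018 with Neurog2 and -0.238 with Neurod6, none past 0.3. Within set 2 the sign was reversed with Sox2 (-0.078) and Hes1 (-0.239), and within set 3 with Neurog2 (-0.072). With Neurod6 it was negative in every set.

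Id4 cells carried more genes of DNA replication. They had a median of 13 of the 25 G1/S genes at 10 CPM (2 to 23) and the other cells a median of 4 (1 to 23). All 24 G1/S genes of mean CPM 10 or more had a positive rho with Id4 (median 0.203, all genes 0.043), and 3 passed the rule, the replicative helicase genes Mcm3 (0.318) and Mcm4 (0.311) and the licensing factor Cdt1 (0.306), where 1.95% of all genes passed positively and 0.394% negatively. Cells with Id4 also had more genes of any kind at 10 CPM, with a median of 3204 against 2583, and the part of this was not tested. Of 32 G2/M genes 25 had a positive rho with Id4 (median 0.076), beside 62.5% of all genes, and none passed. In the same cells a median of 10 of the 22 apical progenitor genes was present, and of 5 in the others, and 17 of 19 such genes had a positive rho (median 0.202), none of which passed.

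Cells with the mitotic cyclin gene Ccnb1 held Id3 and Id4 more often than the rest. Id3 was present in 10 of 26 Ccnb1 cells (38.5%, 20.2 to 59.4) and 3 of 39 others (7.69%, 1.62 to 20.9), and Id4 in 12 of 26 (46.2%, 26.6 to 66.6) and 8 of 39 (20.5%, 9.30 to 36.5), but 18.3% of all genes were more frequent by 20 points or more in Ccnb1 cells. The intervals overlap for both Id genes. Id2 was present in 13 of 26 Ccnb1 cells and 17 of 39 others, and no Id gene was less frequent in Ccnb1 cells by 20 points, as 1.86% of genes were. By Top2a, a topoisomerase of dividing cells, the counts were 8 of 32 against 5 of 33 for Id3 and 13 of 32 against 7 of 33 for Id4.

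The genes most like Id4 were Cachd1 (rho = 0.501), Ccdc6 (0.457), Zfp422 (0.445), the hedgehog co-receptor gene Gas1 (0.437), Ubfd1 (0.435) and the citrate synthase gene Cs (0.435). Gas1 was at 10 CPM in 22 cells, 13 of them with Id4. At the negative end lay Arfgef1 (-0.486), the ubiquitin gene Ubb (-0.428), Cdkn1c (-0.404), an inhibitor of the cell cycle, and Bicd2 (-0.402). Cdkn1c was at 10 CPM in 22 cells, 3 of them with Id4, and had a rho of -0.32, -0.56 and -0.60 within sets 1, 2 and 3. These genes too were picked as extremes among 8376 genes.

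Over all cells, the mean level of Id2 was lower in Sox2 cells than in Neurod6 cells, and those of Id3 and Id4 were higher. Id2 had a mean of 194 CPM (SD 417) in the 22 Sox2 cells and 423 CPM (SD 442) in the 16 Neurod6 cells, 2.17-fold more on the scale of mean CPM + 1. Id3 had 166 CPM (SD 393) against 0.0481 CPM (SD 0.106), and Id4 119 CPM (SD 223) against 26.9 CPM (SD 81.8), 4.31-fold more in Sox2 cells. On that scale 31.3% of 8375 genes were more than 2-fold higher in Sox2 cells and 23.2% in Neurod6 cells, so that a difference of this size was common. The cells of each class overlapped widely for Id2 and Id4, and the Id2 ratio was under 2-fold without title set 1 or without title set 3. Within sets 1, 2 and 3 the log2 ratio of Sox2 over Neurod6 cells was -1.60, 8.41 and -3.67 for Id2, so that its direction was the opposite in set 2, which has 2 Neurod6 cells. For Id4 it was 2.04, 7.04 and 4.85, and over sets 2 and 3 without set 1 it was 6.16, against 2.11 over all cells.

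The E proteins, the direct partners of Id proteins, did not pass with any Id gene, as most genes did not. Tcf4 was at 10 CPM in 56 cells (mean 407 CPM, SD 349), Tcf12 in 27 and Tcf3 in 21. Of these, 26, 8 and 9 cells in that order had Id2, 10, 9 and 3 had Id3, and 19, 10 and 4 had Id4. The rho with Id2 was 0.11, -0.24 and -0.17, with Id3 -0.15, 0.18 and -0.02, and with Id4 0.08, 0.17 and 0.23. Of the Hes and Hey genes, Hey1 was present in 9 cells, 4 of them with Id2, 2 with Id3 and 5 with Id4. Hes5 reached 10 CPM in only 3 cells.

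In the lists of the BMP pathway, Acvr2b passed the correlation rule with Id4 and Fstl1 with Id3. At the shares given for all genes, few passes would be expected in lists this short. The count is therefore not read as a lack in the pathway. Of the ligands, 2 of 8 listed were in the table, and Bmp4 and Gdf5 reached 10 CPM in 1 cell each. Both were at that level in the same cell of set 2, which had Id1, Id2 and Id3. Of the 5 receptor genes measured, 1 passed, Acvr2b with Id4, negatively (rho = -0.319), as 0.394% of all genes did. The type I receptor gene Bmpr1a was present in 20 cells, 11 of them with Id4 (rho = 0.341, but -0.34 within set 2). The effectors Smad1, Smad5 and Smad4 were present in 11, 26 and 35 cells and none passed with an Id gene. Among the 4 inhibitors and modulators of mean CPM 10 or more 1 passed, Fstl1, a secreted glycoprotein gene, with Id3 (rho = 0.476 over 65 cells, and 0.20, 0.72 and 0.39 within sets), as 2.51% of all genes did. Fstl1 reached 10 CPM in 33 cells, among them all 13 with Id3. The inhibitor Noggin gene Nog reached that level in no cell, and Smad7, a target and inhibitor of the pathway, in 3 cells, 2 of them with Id2.

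Cells with 3 or more of the 12 measured interneuron and ventral telencephalon genes, 10 in number, had Id2 in 2, Id3 in 1 and Id4 in 2. Their intervals were wide (Id2 20%, 2.52 to 55.6, against 28 of 55 others, 50.9%, 37.1 to 64.6). The 13 Sox2 cells with Hes1 had Id3 in 6 and Id4 in 6, and the 9 Sox2 cells without Hes1 had Id3 in 2 and Id4 in 4.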

How the data were processed

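The authors deposited raw read counts per gene for 65 singly sorted cells, made with a full-length cDNA kit without molecular identifiers. Per the submitters' processing notes, TopHat2, HTSeq and the mm9 build were used. The sources used here do not give the gene annotation. Libraries held 85338 to 32130629 counts in genes, and 3 cells had fewer than 1000000. Each column was matched to a sample by its title. Counts were divided by the cell total to give CPM. Every gene in the table had reads in at least 5 cells, and correlations were made over 8377 genes of mean CPM 10 or more. Spearman correlation, shares of cells at 10 CPM with exact 95% intervals and ratios of mean CPM + 1 were computed. Python 3.11.15 was used, with scipy 1.17.1 and pandas 2.3.3. The correlation rule was first run on simulated data. In these the title sets differed in depth only, so that run does not cover other differences between sets. Size factors came from scran 1.30.0 and edgeR 4.0.16. No cells were removed, no doublet caller was run, and no 2 cells held identical values. Of 25 gene lists, genes named are the Id and anchor genes, the E protein, bHLH, Hes, Hey and BMP genes, up to 4 members of each other list with the highest absolute rho, and for each Id gene the 6 highest and 4 lowest correlations with 1 sign in every title set. Eomes, Ccnb1, Tbr1, Top2a, Pax6, Dcx, Stmn2 with Id3 and the mural genes were named after their values were seen. Id1, with reads in 5 cells, was left out of correlations. The members and lists were chosen with earlier results of these data known.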

Additional observations from a re-analysis of the deposited data

How the results depend on the processing

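Values were recomputed with scran or TMM factors and after thinning to 1000000 reads. They were also recomputed without the 3 shallow cells, the 2 cells with mural markers or a title set. Most stayed within their spread. For a share this was its exact interval, and for a rho or ratio the SD of its values within the title sets. Such bounds are wide where cells are few or sets differ, so staying within them cannot show that a value holds. The rho of Id2 with Neurod6 was 0.272 with a spread of 0.423. Its 0.03 without title set 1 was therefore within the spread. Values outside it, and others that changed with the setting, follow. Counting 1 read or more put Id2 in 83.1% of cells, Id3 in 52.3% and Id4 in 60%. Without title set 1, Id2 was in 40.0% (2 of 5) and Id4 in 0% (0 of 5) of Neurod6 cells, and the log2 ratio of mean CPM + 1 in Sox2 over Neurod6 cells was 6.16 for Id4 (2.11 with all sets) and -0.27 for Id2 (-0.64 without set 3, -1.12 with all sets, past 2-fold like 23.2% of genes). For Id3 that ratio was 7.32 with all cells (past 2-fold like 31.3% of genes) and 2.89 as a difference of mean log2(CPM + 1). The rho of Id4 with Neurod6 was -0.11 after thinning. With rho past 0.4 in place of 0.3, the genes counted with Id2 numbered 27 positive and 2 negative, with Id3 68 and 14 and with Id4 19 and 4, against 156 and 15, 210 and 72, and 163 and 33. Of 132 recomputed correlations with the anchors, 121 kept their sign. The share alternatives repeated in marker cells, the highest cell set to the next value and setting low values to 0 were alternatives chosen after seeing the data. The number of cells limits every share. No paired analysis was possible because all cells form 1 group.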

Other observations

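Of the 5 genes of mean CPM 10 or more among the inhibitors of cyclin-dependent kinases and pocket proteins, 1 passed the correlation rule with Id2, positively, as 1.86% of all genes did. It was Cdkn1b, at 10 CPM in 48 cells, 27 of them among the 30 with Id2 (rho = 0.335, and 0.23, 0.27 and 0.49 within title sets 1, 2 and 3). With Id4, Rbl1, a relative of the retinoblastoma gene, passed positively (rho = 0.307), as 1.95% of genes did, and Cdkn1c negatively. The rho of Rbl1 was also positive with Id2 (0.016) and Id3 (0.234), and Cdkn1a (0.302 with Id3) and Rb1 passed with none. Of the 3 D-type cyclin genes, Ccnd1 passed with Id4 (rho = 0.302) and Ccnd2 negatively with Id3 (-0.302, as 0.86% of genes did), while Ccnd3 passed with none (0.236 with Id4, 0.126 with Id3 and -0.146 with Id2). Cdkn1b, Rbl1, Ccnd1 and Ccnd2 lay only just past the bound of 0.3.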
